A study of Mus musculus with 4 samples.

Results

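Snai1, Snai2, Zeb1, Zeb2, Twist1 and Twist2 encode repressors of transcription that are best known from mesenchymal cells. They were taken by symbol from a table of read counts per gene, which held all 6 among its 23282 features. Nascent RNA had been sequenced from C2C12 myotubes, the fused muscle cells that form when this established female mouse myoblast line leaves the cell cycle. All cultures had been deprived of steroids. One group then received vehicle for 2 h, and the other received 1 µM dexamethasone, a synthetic ligand of the glucocorticoid receptor, for 2 h. Each group had 2 libraries of RNA that stayed with the chromatin pellet of lysed nuclei. Nothing in the labels says that these came from separate cultures, so p-values measure only the spread between these libraries.

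Snai1 and Snai2 are zinc finger proteins, Zeb1 and Zeb2 combine zinc fingers with a homeodomain, and Twist1 and Twist2 are basic helix-loop-helix proteins. Snail and Zeb proteins bind E-box sequences and bring histone deacetylases, the CtBP corepressors or the demethylase Kdm1a to genes such as Cdh1 (E-cadherin), which they silence in the passage from epithelial to mesenchymal cells. In muscle precursors, Snai1 with histone deacetylases occupies E-boxes that MyoD later uses, and Twist proteins compete for the E-protein partners of MyoD.

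The gene totals ran from 19631435 counts in vehicle replicate 1 to 88596296 in dexamethasone replicate 2. Levels are given as CPM, which are counts brought to the same total in each library and adjusted for composition by a TMM factor. Replicate number also separated the libraries: over the 13285 genes tested, what distinguished replicate 1 from replicate 2 in vehicle resembled what distinguished them in dexamethasone (Pearson's r = 0.734, across genes, which are not independent replicates). For the repressor genes, values within each replicate number are therefore given beside the pooled ones. As a check of the treatment, Fkbp5, a co-chaperone gene induced by glucocorticoids, had 21.5 and 21.6 CPM in vehicle and 1019 and 697 CPM after dexamethasone. All 8 myotube markers were detected in every library. Markers of other cells were scarce: the 4 epithelial, 3 endothelial, 3 immune and 2 glial markers each summed to 7.61 CPM or less in every library. The 5 fibroblast markers summed to 11.4 and 9.17 CPM in vehicle and 13.1 and 15.2 CPM in dexamethasone. Of these, Lum, Thy1 and Tcf21 were listed at 0, Pdgfra had 6.12 and 4.30 against 9.14 and 12.05 CPM (log2 fold change 1.04, SE 0.278, edgeR adjusted p 0.503, or 0.0172 with the replicate number as a term), and Dcn had 5.26 and 4.88 against 3.97 and 3.17 CPM. The part of such cells in these results was not tested.

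The repressors differed widely in level. Per kilobase of exon, Zeb1 stood at 143 ± 9.47 CPM in vehicle (SD, n = 2), Zeb2 at 24.1 ± 4.11, Snai2 at 4.50 ± 0.697, Snai1 at 3.70 ± 1.35, Twist2 at 3.36 ± 0.236 and Twist1 at 0.0408 ± 0.0110. Zeb1 lay above 99.5% of the tested genes on this scale, Zeb2 above 89.4%, Snai2 above 50.3%, Snai1 above 45.3% and Twist2 above 43.0%. Every library put Zeb1 above Zeb2, and Zeb2 above the Snail genes and Twist2. The Snai1 libraries overlapped those of Snai2 and of Twist2 in both groups. Per kilobase of exon, Snai2 lay above Twist2 in both vehicle libraries and below it in both dexamethasone libraries. This change of order depends on the length used, since the whole gene spans 3.53 kb for Snai2 and 46.6 kb for Twist2. On the exon scale the order of the means with dexamethasone was Twist2 (3.87 ± 0.864), Snai1 (3.46 ± 1.54) and Snai2 (2.93 ± 0.0168). Whether introns were counted is not stated, and Zeb1 and Zeb2 have long introns. Per kilobase of the whole gene, Zeb1 was at 8.02, Zeb2 at 3.60, Snai2 at 2.57, Snai1 at 1.30 and Twist2 at 0.229 in vehicle, in the same order.

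**Figure D1:**
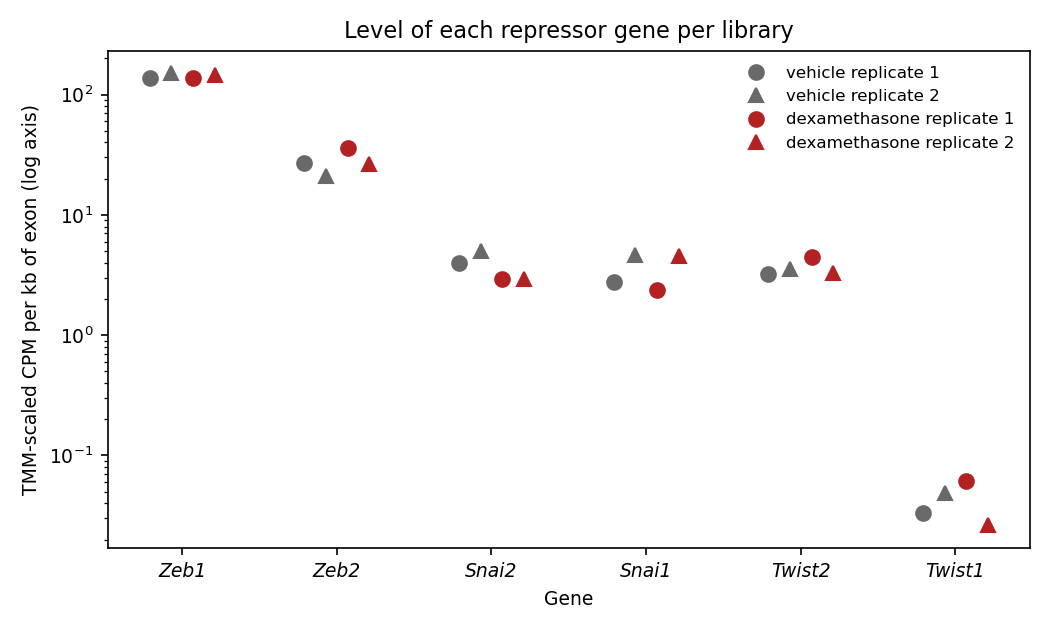
TMM-scaled CPM per kilobase of exon for each repressor gene (log axis) in the 4 libraries, with circles for replicate 1, triangles for replicate 2, grey for vehicle and red for dexamethasone. Zeb1 lies above Zeb2 in every library, the Snail genes and Twist2 share a middle range, and Twist1 lies far below them.

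None of the repressor genes passed the test of dexamethasone against vehicle with group as its only term. Of the 6, Twist1 had too few counts to be tested. edgeR's quasi-likelihood test with Benjamini-Hochberg adjustment over all genes called 0 of the other 5, against 0.0376% of all genes called higher and 0% called lower. DESeq2 also called 0 of the 5, against 1.78% of all genes higher and 0.399% lower. edgeR's likelihood ratio test called 0 of the 5, against 1.83% and 0.339%. limma-voom called 0 of the 5 and 0% of all genes. At an unadjusted p under 0.05, 1 of the 5 (Snai2) was lower and 0 were higher, where 1.69% of all genes were lower and 4.09% higher. The test called 5 genes higher and 0 lower in all. It called only 2 of 8 genes listed as induced by glucocorticoids, though all 8 were higher at an unadjusted edgeR p under 0.05. A repressor gene that did not pass is thus not shown to be unchanged. With the replicate number added as a term, 2 of the 5 repressor genes passed: Snai2 was lower (edgeR adjusted p 0.0184) and Zeb2 higher (edgeR adjusted p 0.00698). That fit, with 1 residual degree of freedom, called 6.87% of all genes higher and 5.78% lower. Without vehicle replicate 2 the test without that term called 84 genes higher and 109 lower, without dexamethasone replicate 1 it called 24 and 0, and without dexamethasone replicate 2 it called 28 and 0.

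Snai2 (ENSMUSG00000022676), also called Slug, had the largest difference of the 5 tested genes. It had 151 and 383 counts in vehicle replicates 1 and 2 and 178 and 550 in dexamethasone replicates 1 and 2. Scaled, this was 8.10 and 10.1 CPM in vehicle and 5.94 and 5.89 CPM in dexamethasone, so both dexamethasone libraries lay below both vehicle libraries. That arrangement held for 12.9% of all tested genes. The fold change was 0.649, or -0.62 on the log2 scale (SE 0.206, 95% interval -1.17 to -0.08), with an edgeR unadjusted p of 0.0326 and an adjusted p of 0.728. Within replicate 1 the log2 difference was -0.45 and within replicate 2 it was -0.78, where 33.9% of all tested genes were lower within both numbers. Leaving out any 1 library gave values from -0.77 to -0.45.

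Of 4 genes listed as markers of undifferentiated myoblasts, cells that express Snai2, 3 also had lower values with dexamethasone. Whether these genes mark only such cells here was not tested. Cdon, Pax7 and Itga7 had both dexamethasone libraries below both vehicle libraries, and Myf5 did not, where 12.9% of all tested genes had that arrangement. Their summed level was 968 and 969 CPM in vehicle and 692 and 734 CPM in dexamethasone. Most of this sum is Cdon and Itga7. The difference of Itga7 was small, with 498 and 537 CPM in vehicle and 455 and 491 in dexamethasone (log2 fold change -0.13, SE 0.132, edgeR unadjusted p 0.381). Myf5 had only 1.98 and 1.05 CPM in vehicle and 2.27 and 1.45 in dexamethasone. Cdon, a cell surface coreceptor that promotes myogenesis, had 436 and 392 CPM in vehicle and 217 and 218 CPM in dexamethasone (log2 fold change -0.93, SE 0.129, edgeR adjusted p 0.160). Cdon passed with DESeq2 (adjusted p 0.00012), under the edgeR likelihood ratio fit (adjusted p 0.000593) and with the replicate term (edgeR adjusted p 0.000349). Pax7, the transcription factor of satellite cells, had 32.0 and 39.0 CPM against 17.9 and 22.9 (log2 fold change -0.80, SE 0.201, edgeR adjusted p 0.456, or 0.000881 with the replicate term). The part of these cells in the level of Snai2 was not tested. In a bulk sample, fewer cells of a type and less RNA per cell cannot be told apart. The summed markers of proliferating cells were 22.7 and 21.2 CPM in vehicle and 21.8 and 25.6 in dexamethasone, with no separation of the groups.

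Snai1 (ENSMUSG00000042821), like Snai2 a Snail family member, followed the replicate number. Its counts were 83 and 286 in vehicle and 115 and 688 in dexamethasone. In CPM this was 4.45 and 7.54 in vehicle against 3.84 and 7.37 in dexamethasone, so the groups overlapped fully and both replicate 2 libraries were the high ones. Replicate 2 exceeded replicate 1 by 0.76 on the log2 scale in vehicle and by 0.94 in dexamethasone. A difference of over 1.5 times this way in both groups was found in 6.17% of tested genes. The log2 fold change for treatment was -0.10 (SE 0.438, 95% interval -1.26 to 1.06, edgeR adjusted p 1.00). It turned to 0.35 without vehicle replicate 2 and to 0.29 without dexamethasone replicate 1, so no direction can be given. Within replicate 1 the log2 difference was -0.21 and within replicate 2 it was -0.03.

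The summed myotube markers ran the other way, at 123522 and 119015 CPM in the replicate 1 libraries and 42960 and 41885 in the replicate 2 libraries of vehicle and dexamethasone. Most of this is Ttn, the titin gene, and without it the sums were 5395 and 1890 CPM in vehicle and 5660 and 1942 CPM in dexamethasone. Of the 8 markers, 7 were higher in replicate 1 in both groups, Mymx being the exception. Mymk, 1 of the 7, barely differed between replicates 1 and 2, with 176 and 173 CPM in vehicle and 208.3 and 207.9 in dexamethasone. In 8.21% of all tested genes replicate 1 exceeded replicate 2 by over 1.5 times in both groups, a stricter arrangement. The share of all genes with any such excess, which is the like share for the 7 markers, was not computed. The count of 7 therefore cannot be called unusual. The part of the myotube markers in the level of Snai1 was not tested.

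**Figure D2:**
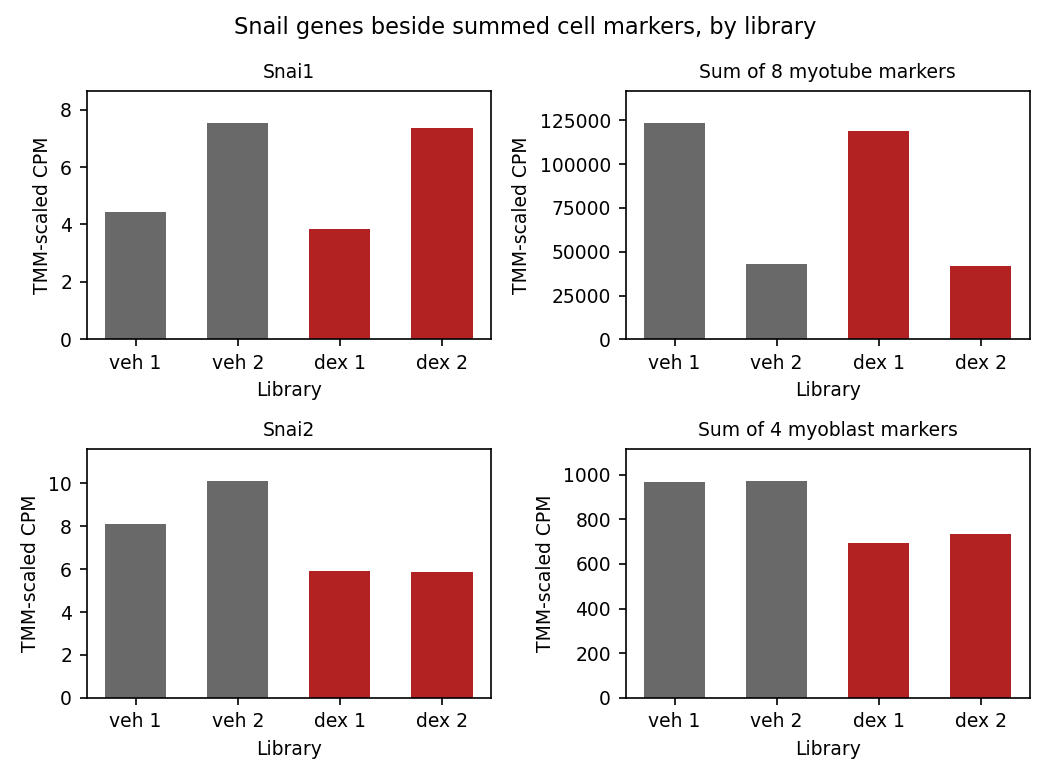
TMM-scaled CPM per library for Snai1, Snai2, the sum of 8 myotube markers and the sum of 4 markers of undifferentiated myoblasts, with grey bars for vehicle and red bars for dexamethasone. Snai1 is high where the myotube sum is low, by replicate number, while Snai2 and the myoblast sum are lower in both dexamethasone libraries. Most of the myotube sum is Ttn, and most of the myoblast sum is Cdon and Itga7.

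The Snai1 protein is known to bind an E-box in its own promoter, and the RefSeq window before the Snai1 start site is shown for that reason. It lies at chr2:167537945-167538194 on the plus strand of GRCm38.p6, while the counts were made on mm9. Capitals mark the single match to CAGGTG or its reverse complement CACCTG, whose first base lies 126 bases before the start site.
Snai1 promoter: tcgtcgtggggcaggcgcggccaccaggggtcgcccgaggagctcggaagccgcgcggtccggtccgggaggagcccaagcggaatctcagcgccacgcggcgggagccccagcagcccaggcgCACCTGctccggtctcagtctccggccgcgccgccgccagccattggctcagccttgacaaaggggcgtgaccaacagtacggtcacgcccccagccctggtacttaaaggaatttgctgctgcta
This motif was found on either strand in 17.2% of 32851 RefSeq promoter windows of the same 250 bases. The 4 windows of Zeb2 and the windows of Twist1 and Twist2 held no match to it, nor to the general E-box CANNTG, which 66.2% of windows held and which includes CAGGTG. The half-site TGTTCT of the glucocorticoid receptor, or its reverse complement AGAACA, stood in none of the windows of Snai1, Zeb2, Twist1 and Twist2, and in 16.1% of all windows. The palindromic glucocorticoid response element was in none of them and in 0.00913% of all windows. A match is no evidence of binding, and the absence of one says only that these letters are not in this window.

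Zeb1 (ENSMUSG00000024238) was the most abundant of the repressors and had the smallest SE of the 5 tested. It had 26156 and 58460 counts in vehicle and 42374 and 139450 in dexamethasone, or 1403 and 1541 CPM against 1414 and 1493 CPM. The dexamethasone libraries lay between the vehicle libraries. The log2 fold change was -0.02 (SE 0.142, 95% interval -0.39 to 0.36, edgeR adjusted p 1.00), and it was 0.06 without vehicle replicate 2 and 0.03 without dexamethasone replicate 1. The log2 difference was 0.01 within replicate 1 and -0.04 within replicate 2.

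Zeb2 (ENSMUSG00000026872), its paralog, was somewhat higher in dexamethasone within each replicate number. Its counts were 10051 and 16057 in vehicle and 21439 and 49468 in dexamethasone, or 539 and 423 CPM against 715 and 530 CPM. The groups overlapped, since vehicle replicate 1 slightly exceeded dexamethasone replicate 2. The log2 fold change was 0.37 (SE 0.221, 95% interval -0.21 to 0.96, edgeR unadjusted p 0.160, adjusted p 1.00). The log2 difference was 0.41 within replicate 1 and 0.32 within replicate 2, and 34.2% of all tested genes were higher within both numbers. Replicate 2 was below replicate 1 by similar amounts in both groups, with log2 differences of -0.35 in vehicle and -0.43 in dexamethasone. The fold change shrank to 0.15 and grew to 0.57 as single libraries were left out.

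Other gene models overlap these loci in the GENCODE M21 annotation. Zeb2os, which lies within Zeb2 on the opposite strand, had 7 and 5 counts in vehicle and 5 and 41 in dexamethasone. Gm10125 shares 1646 bases with Zeb1 on the opposite strand and had 54.3 and 52.4 CPM in vehicle and 56.0 and 49.0 in dexamethasone. Whether strand was used in counting is not stated, so reads of such pairs cannot be told apart. Both partners are far less abundant than the Zeb gene they overlap. Twist2 shares 1477 bases with Gm29100 on the opposite strand, and Gm29101 (1471 bases) lies within it on the same strand. Other short gene models overlap Zeb1 or Zeb2. The counts of these further models are not given here.

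**Figure D3:**
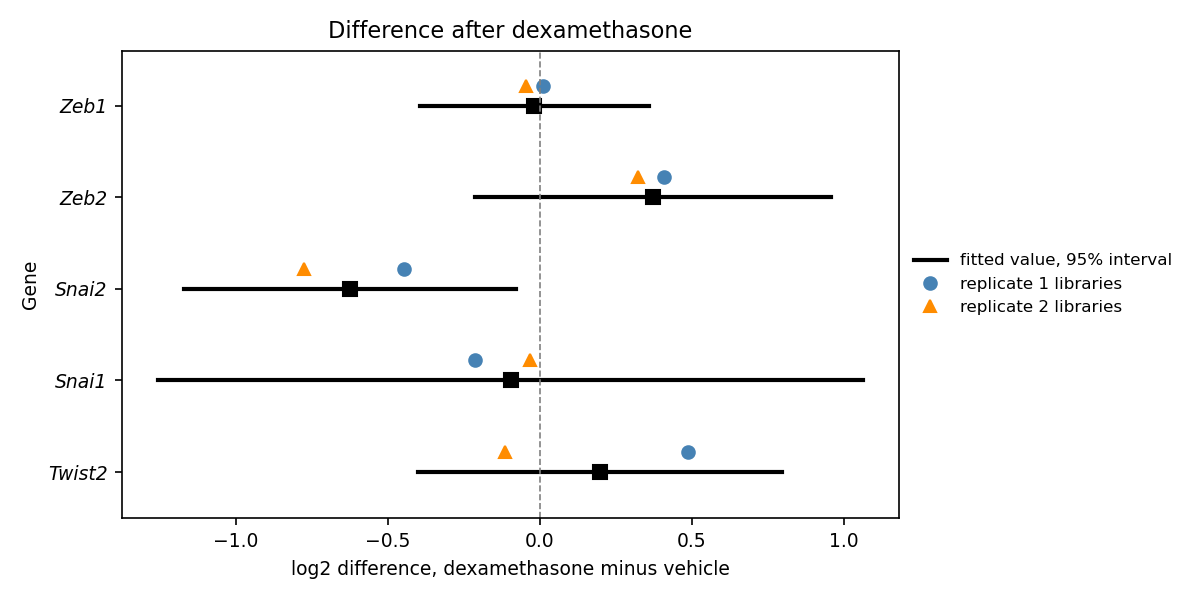
Log2 difference of dexamethasone from vehicle for the 5 tested repressor genes, with squares and bars for the fitted value and its 95% interval, and blue circles and orange triangles for the difference within replicate 1 and within replicate 2. For Snai2 both numbers lie below 0 and for Zeb2 both lie above 0, while the intervals of Zeb1, Zeb2, Snai1 and Twist2 span 0.

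The Zeb genes are the classical targets of the miR-200 microRNA family, which pairs with the 3′ untranslated regions of their messages. The RefSeq mature sequences of the 5 family members are shown with the seed, bases 2 to 8, in capitals, because the seed sorts them into 2 sets.
mmu-miR-200b-3p: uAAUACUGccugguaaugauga
mmu-miR-200c-3p: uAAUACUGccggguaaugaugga
mmu-miR-429-3p: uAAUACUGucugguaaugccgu
mmu-miR-200a-3p: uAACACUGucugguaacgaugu
mmu-miR-141-3p: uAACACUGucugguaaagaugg
In the longest annotated 3′ region of each gene, CAGTATT, the match to the first seed, occurred 5 times in Zeb1 and 5 times in Zeb2, and CAGTGTT, the match to the second, 4 times in each. Snai2 held 1 of each, Snai1 held 1 match to the first seed and 0 to the second, and Twist1 and Twist2 held 0. Any match was found in 12.9% of 21685 genes for CAGTATT and in 16.6% for CAGTGTT. At least 4 matches were found in 0.0507% of these genes for CAGTATT and in 0.24% for CAGTGTT. An example of each site in Zeb2, with the seed match in capitals, follows.
Zeb2 site for the first seed: cactaccatacatCAGTATTtt
Zeb2 site for the second seed: caaaaattttgtaCAGTGTTaa
The rows of Mir200a, Mir200b, Mir200c, Mir141 and Mir429 were each listed at 0 in all 4 libraries. Such rows are short, and a count of 0 here says nothing on mature microRNA, which was not measured.

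Of 16 microRNA genes and hosts listed as regulators of the repressors, 11 were listed at 0 in every library and 4 could be tested. Mir34b and Mir34c, which target Snai1, lie in a stretch of 371 neighbouring genes on one strand that are all listed at 0, so they count as not measured. The muscle microRNA genes Mir133b and Mir206 were detected, with 32.1 and 25.6 against 32.9 and 25.9 CPM for Mir133b. Dnm3os, the noncoding host of miR-214 and miR-199a and a known target of Twist1, had 55.6 and 75.1 CPM in vehicle and 102 and 138 CPM in dexamethasone. The groups did not overlap, with dexamethasone above, as in 15% of all tested genes. The fitted log2 fold change of Dnm3os was 0.87 (SE 0.235, edgeR adjusted p 0.504, or 0.000336 with the replicate term).

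Twist2 (ENSMUSG00000007805), also called Dermo1, had 189 and 425 counts in vehicle and 426 and 965 in dexamethasone. This was 10.1 and 11.2 CPM against 14.2 and 10.3 CPM, so dexamethasone replicate 1 stood highest and the groups overlapped. The log2 fold change was 0.20 (SE 0.226, 95% interval -0.40 to 0.80, edgeR adjusted p 1.00), and -0.04 without dexamethasone replicate 1. The log2 difference was 0.49 within replicate 1 and -0.12 within replicate 2. Twist1 (ENSMUSG00000035799) had 1 and 3 counts in vehicle and 3 and 4 in dexamethasone, 11 in all. The ratio of dexamethasone to vehicle in pooled counts was 0.803 with an exact 95% counting interval of 0.204 to 3.74. A change of a few times in either direction was thus not detectable at this depth. The mean level of Twist1 ran the other way, at 0.0664 CPM in vehicle and 0.0715 in dexamethasone. Its log2 difference was 0.90 within replicate 1 and -0.88 within replicate 2, so no direction can be given. Among relatives, the Snail gene Snai3 had 0.805 and 0.211 CPM against 0.968 and 0.321, and Scx, a tendon helix-loop-helix factor, had 7.35 and 13.8 against 6.07 and 10.0. Of 10 such relatives these 2 could be tested, and 4 were listed at 0 in every library.

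The genes nearest to each tested repressor in profile over the 4 libraries were found by the distance between centred log2 CPM profiles. With so many genes and 4 libraries, the nearest ones must lie far below the median distance. They are a description only and show no relation between genes. Snai2 was nearest to Col1a2 (distance 0.0951), Plxna1 (0.104) and Zfp467 (0.118), against a median distance of 0.760 to all tested genes. Col1a2, a fibrillar collagen gene, had 286 and 337 CPM in vehicle and 215 and 198 CPM in dexamethasone. Near Snai1 were Bbc3 (0.0173) and Lrfn4 (0.0573), with a median of 0.918. Zeb2 was nearest to Atp7a (0.0248), Saysd1 (0.0474) and Ptpn6 (0.0499), with a median of 0.672. Zeb1 was nearest to Eefsec (0.00313), Rpl27 (0.00755) and Psmd5 (0.0142), with a median of 0.410. Twist2 was nearest to Plac8l1 (0.0270), Msmo1 (0.0481) and Sac3d1 (0.0686), with a median of 0.558.

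The partners of the repressors were measured next. Of 26 corepressors and cofactors 24 could be tested. edgeR called 0 in either direction, against 0.0376% of all genes higher and 0% lower. An unadjusted edgeR p under 0.05 was reached by 1 higher and 1 lower gene, where 4.09% and 1.69% of all genes reached it. The replicate term brought 1 of the 24 past the threshold as higher and 5 as lower (4.17% and 20.8%, against 6.87% and 5.78% of all genes). Their median log2 fold change was -0.09, beside 0.00 over all genes, with 8 higher and 16 lower. Without vehicle replicate 1 that median was -0.18, without vehicle replicate 2 it was -0.05, and without dexamethasone replicate 2 it was -0.15. Both dexamethasone libraries lay below both vehicle libraries in 6 of them (25%, against 12.9% of all genes) and above in 1 (4.17%, against 15%). Wwtr1, the TAZ coactivator that binds Snail proteins, had 602 and 658 CPM in vehicle and 338 and 381 in dexamethasone (log2 fold change -0.81, SE 0.142, edgeR adjusted p 0.230). Wwtr1 passed with DESeq2 (adjusted p 0.00287), under the edgeR likelihood ratio fit (adjusted p 0.00932) and with the replicate term (edgeR adjusted p 0.000315). Limd1, a LIM protein of the Ajuba group that serves Snail proteins as corepressor, had 82.2 and 90.9 CPM against 130 and 133 (0.60, SE 0.124, edgeR adjusted p 0.317, or 0.00159 with the replicate term). Kat2b, an acetyltransferase, was at -0.47 (SE 0.186, edgeR adjusted p 0.903, or 0.0395 with the replicate term) and Sin3a, the scaffold of a histone deacetylase complex, at -0.23 (SE 0.127). Tcf12, an E-protein partner of Twist, and Smad3 lie in the stretch of 371 genes listed at 0 and were not measured.

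The 21 regulators of the stability or export of these proteins included 20 that could be tested. edgeR called 0 of them, against 0.0376% of all genes higher and 0% lower. An unadjusted edgeR p under 0.05 was reached by 1 higher and 0 lower genes, where 4.09% and 1.69% of all genes reached it. With the replicate term 1 higher and 1 lower gene passed (5% each way, against 6.87% and 5.78% of all genes). The log2 fold changes of the 20 ran only from -0.44 to 0.38, with a median of -0.03. Siah1a, a ubiquitin ligase gene, had 116 and 119 CPM in vehicle and 155 and 151 in dexamethasone (0.38, SE 0.114, edgeR adjusted p 0.616, or 0.00756 with the replicate term). Psmd14, a deubiquitinase subunit of the proteasome, was at 0.08 (SE 0.117), and Csnk2a1, a casein kinase catalytic subunit, at -0.11 (SE 0.113).

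Epithelial genes that these repressors silence were mostly at or near 0 counts. Patj was an exception, with 229 and 182 CPM in vehicle and 224 and 180 in dexamethasone. Of 24, 7 had enough counts to test and 5 were listed at 0 in every library: Epcam, Cldn3, Cldn4, Cldn7 and St14, the last within another long stretch of genes at 0. Cdh1 had 7.30 and 3.29 CPM in vehicle and 5.50 and 2.87 CPM in dexamethasone, higher in replicate 1 of both groups, as 8.21% of all genes were by over 1.5 times. Its log2 fold change was -0.34 (SE 0.531, edgeR adjusted p 1.00), and it turned to 0.33 without vehicle replicate 1 and to 0.07 without dexamethasone replicate 2. Within replicate 1 the log2 difference of Cdh1 was -0.41 and within replicate 2 it was -0.20. Cdh3, the P-cadherin gene, had 0.376 and 0.501 CPM against 0.667 and 1.06 (0.97, SE 0.454, edgeR adjusted p 1.00). Without the replicate term edgeR called 0 of the 7, against 0.0376% of all genes higher and 0% lower. With the term it called 0 of the 7, against 6.87% and 5.78%. Without the term 0 of the 7 had an unadjusted edgeR p under 0.05, where 4.09% and 1.69% of all genes did. The median log2 fold change of these 7 was -0.02, and it was 0.91 without vehicle replicate 2.

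Of 28 mesenchymal genes, 26 could be tested, and edgeR called 0, against 0.0376% of all genes higher and 0% lower. An unadjusted edgeR p under 0.05 was reached by 4 higher and 3 lower genes, where 4.09% and 1.69% of all genes reached it. DESeq2 and edgeR's likelihood ratio test each called 2 higher and 0 lower (7.69% and 0%). Of all genes, DESeq2 called 1.78% higher and 0.399% lower, and the likelihood ratio test 1.83% and 0.339%. With the replicate term 7 passed as higher and 8 as lower (26.9% and 30.8%, against 6.87% and 5.78% of all genes). In direction 14 were higher and 12 lower, around a median log2 fold change of 0.02, which was 0.16 without vehicle replicate 2. Groups that did not overlap were found in 7 with dexamethasone above (26.9%, against 15% of all genes) and in 5 with dexamethasone below (19.2%, against 12.9%). Postn, which encodes the matrix protein periostin, had 11.1 and 10.6 CPM in vehicle and 117 and 63.9 CPM in dexamethasone (3.06, SE 0.343, edgeR adjusted p 0.123). It passed when vehicle replicate 2 or either dexamethasone library was left out, with DESeq2 (adjusted p 4.9e-16), under the edgeR likelihood ratio fit (adjusted p 2.09e-12) and with the replicate term (edgeR adjusted p 0.0002355). Lox, a collagen crosslinking enzyme, was at 0.63 (SE 0.159, edgeR adjusted p 0.457, or 0.00417 with the replicate term).

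Other mesenchymal genes had lower values with dexamethasone. Prrx1, a homeobox factor of limb mesenchyme, had 159 and 129 CPM in vehicle and 92.1 and 88.0 in dexamethasone (-0.68, SE 0.152, edgeR adjusted p 0.360, or 0.00212 with the replicate term). Pdgfrb, a growth factor receptor, was at -0.92 (SE 0.329, edgeR adjusted p 0.799, or 0.000278 with the replicate term). Fbn1, the fibrillin gene, was at -0.59 (SE 0.197, edgeR adjusted p 0.730, or 0.00196 with the replicate term). Vim, the vimentin gene, followed the replicate number, with 153 and 98.0 CPM in vehicle and 149 and 83.8 in dexamethasone. Its log2 fold change was -0.11 (SE 0.364), which turned to 0.25 without vehicle replicate 1 and to 0.25 without dexamethasone replicate 2. Within replicate 1 the log2 difference of Vim was -0.04 and within replicate 2 it was -0.23. Acta2 and Tagln lie in long stretches of genes listed at 0 and were not measured.

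**Figure D4:**
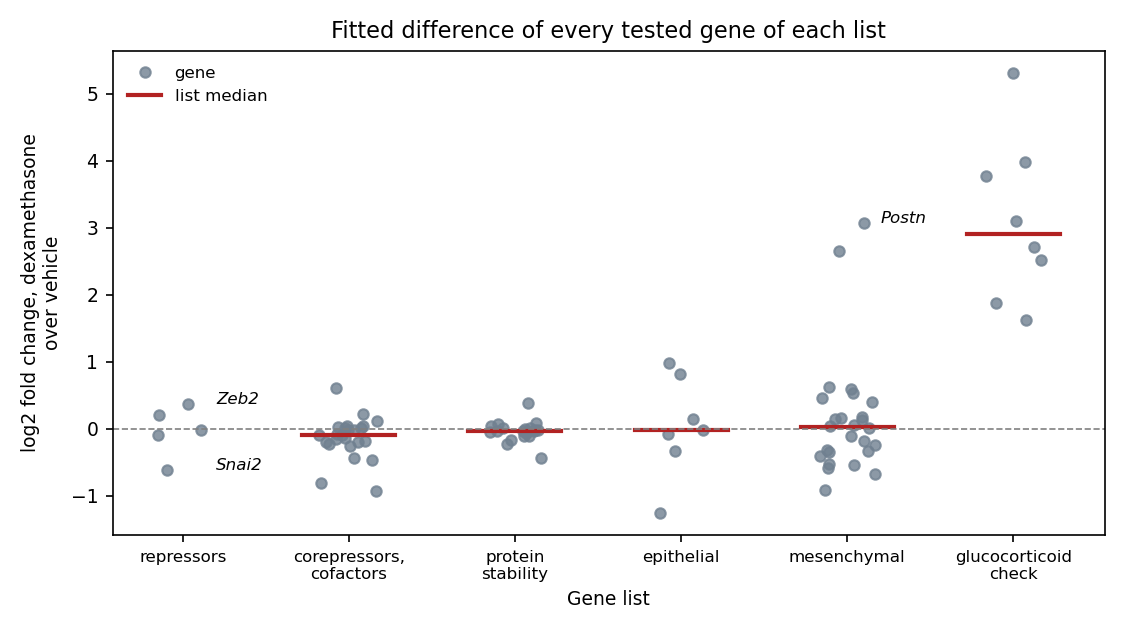
Fitted log2 fold change of dexamethasone over vehicle for every tested gene of the repressors and of 5 lists, with points for genes and red lines for list medians. The medians of the partner, stability, epithelial and mesenchymal lists lie between -0.09 and 0.02 with all 4 libraries, and that of 8 genes induced by glucocorticoids lies at 2.91.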

How the data were processed

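Chromatin-bound RNA of 4 libraries was analysed, 2 with vehicle and 2 with dexamethasone, grouped and numbered by sample title. The authors deposited raw read counts per gene in 1 table. The submitters' processing notes name TopHat2 2.0.13, SAMtools 1.1, HTSeq 0.6.1, DESeq2 1.18.1 and the build mm9. The annotation, the counted features and the strand setting are not given in the sources used here. The labels name both a total RNA and an mRNA stranded kit.

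Of 23333 rows, 51 duplicate another row in symbol and counts and were dropped. Genes were filtered with filterByExpr (minimum count 10, minimum total 15), scaled by TMM and tested with edgeR 4.0.16 in R 4.3.3 (quasi-likelihood, group only, two-sided, Benjamini-Hochberg, threshold 0.05). Intervals at 95% use 2 residual and 2.56 prior degrees of freedom. Alternatives used DESeq2 1.42.0, limma 3.58.1, other scalings and filters, thinning, a replicate term and leaving out each library. Before use, the scripts were also checked on simulated counts with known changes; every level, fold change and p-value reported comes from the deposited counts. Distances between profiles use log2 CPM with a prior count of 2. Gene lengths, order and transcripts came from GENCODE M21 (GRCm38), matched by Ensembl identifier, and promoters and microRNAs from RefSeq (GRCm38.p6); 4 of the 6 genes had a promoter entry. A stretch of 50 or more neighbouring genes of one strand at 0 in every library was treated as not measured.

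The 6 genes and all lists were chosen with earlier results of these data known. Named from each list were at most 3 tested genes per direction with the largest log2 fold change, no overlap between groups and 20 or more counts in every library of the group with the higher level, with the 3 nearest profiles, Fkbp5, Cdh1, Vim and overlapping genes. Relatives, microRNA genes, genes listed at 0, Patj and some markers were named after their values were seen. Results that need 2 genes which this rule would name are not reported here.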

Additional observations from a re-analysis of the deposited data

How the results depend on the processing

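How many genes were called overall varied with the model of the spread. The main test gave 5 higher and 0 lower genes. DESeq2's Wald test gave 236 and 53, the likelihood ratio test of edgeR 243 and 45, and no filter beyond 1 count gave 23 higher. limma-voom called 0 genes, with 540 higher and 231 lower ones past an unadjusted p of 0.05. Leaving out each library gave 4 to 84 higher and 0 to 109 lower genes. The cause was not tested.

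Whether equal replicate numbers mean a common day or batch is not stated, and with only 2 pairs the data cannot settle it. Adding the replicate number as a block gave 913 higher and 768 lower genes, or 6.87% and 5.78% of those tested. Under this block Snai2 (-0.6467, edgeR adjusted p 0.0184) and Zeb2 (0.3657, edgeR adjusted p 0.00698) passed, while Snai1, Zeb1 and Twist2 did not. That fit leaves 1 residual degree of freedom.

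Of the alternatives without the block, none brought one of the 5 tested repressor genes past the threshold. Across the fits that left out 1 library, in which the lone library of a group is assumed to vary like the other group, log2 fold changes ran from -0.6532 to 0.3516 for Snai1, from -0.7703 to -0.4462 for Snai2, from -0.0832 to 0.0585 for Zeb1, from 0.1455 to 0.5719 for Zeb2 and from -0.0421 to 0.4112 for Twist2. For Cdh1 they ran from -0.8623 to 0.3321, with 0.0708 without dexamethasone replicate 2, and for Vim from -0.5731 to 0.2504, with 0.2482 without vehicle replicate 1. Levels per kilobase of the whole gene in place of exons were 1.298 for Snai1, 2.574 for Snai2, 8.016 for Zeb1, 3.597 for Zeb2 and 0.2291 for Twist2. Twist1, at 4 counts or fewer in every library, could not be tested at this depth.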
